A study of Mus musculus with 4 samples.

Results

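The genes described here encode carriers of sodium, chloride, bicarbonate and phosphate, with the sodium pump that drives most of them. They were taken by symbol from a table of 48425 genes: families Slc4, Slc8, Slc9, Slc12, Slc20, Slc24, Slc26 and Slc34, the alpha and beta subunits of the sodium pump (Atp1a and Atp1b), and Fxyd1 to Fxyd7. This gave 67 genes in 11 families. The scaffold genes Slc9a3r1 and Slc9a3r2 carry a similar symbol and are not among the 67. The rule uses symbols alone, although it was drawn up with earlier results of these data known.

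RNA came from mesothelial cells of 4 C57BL/6 mice, labelled WT (wild type), at homeostasis and aged 10 weeks. There was 1 library per animal, all in 1 group. The mesothelium is the single cell layer that covers the peritoneal cavity. The emptied cavity was held with trypsin and EDTA at 37 °C for 20 min, and the detached cells were sorted as CD45-, PDPN+ and GPM6a+. The labels give no batch and no sex, and the series holds no undigested tissue and no other cell type.

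A cell lining a fluid space moves salt across itself by a division of labour. The sodium pump, an alpha and a beta subunit often joined by a small FXYD protein, exports sodium in exchange for potassium. Sodium-coupled carriers use the resulting gradient to bring in chloride, bicarbonate or phosphate or to export acid and calcium, while potassium-chloride cotransporters and anion exchangers let chloride out or trade it for bicarbonate. In the peritoneum, water and solutes cross this layer between the body wall and the cavity.

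Library totals ranged from 4090224 to 4569578 estimated counts. Levels are estimated counts per 1000000 of the column sum (CPM), given as mean ± SD over 4 animals. CPM were not divided by transcript length here. Differences and shares between genes are therefore given as CPM per kilobase of the longest annotated transcript. An order by CPM in a plot or list only sorts the genes. Whether the deposited values had already been scaled by length is not known from the sources used here. The 12 mesothelial markers examined were all above 1 CPM, with a sum of 13671 to 15540 CPM per animal, among them Upk3b at 4135 ± 236 CPM. The fibroblast markers summed to 15100, 22467, 19829 and 14828 CPM in animals 1 to 4, with 9 of 10 above 1 CPM. Most of that sum was Dcn, at 10961, 15498, 13707 and 11391 CPM, and Col3a1 followed at 2741 ± 917 CPM. Pdgfra stood at 25.5 ± 7.56, Thy1 at 26.5 ± 10.8 and Dpt at 7.97 ± 6.43 CPM, and Pi16 was not called. The erythroid markers summed to 4.47, 48.3, 41.8 and 3.35 CPM, with 2 of 8 above 1 CPM. Over all genes the closest pairs of libraries were animals 1 and 4 (chi-square per gene 10.8) and animals 2 and 3 (15.6), beside 20.6 to 26.4 for the other pairs. No leukocyte marker of 10 and no skeletal or cardiac muscle marker of 10 was above 1 CPM in the same test. Of the smooth muscle and pericyte markers 5 of 8 were above 1 CPM, among them Acta2 at 96.0 ± 42.8 CPM. Cnn1, Rgs5 and Lmod1 were not called. By library, the leukocyte markers summed to 16.4, 2.48, 1.27 and 0.883 CPM in animals 1 to 4. In bulk RNA, fewer cells of a type and less RNA per cell cannot be told apart.

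Of the 67 transporter genes, 31 exceeded 1 CPM in a quasi-likelihood test in edgeR (one-sided, Benjamini-Hochberg over all 48425 genes, adjusted p at most 0.0034), which is 46.3%, against 24.7% of all genes in the table. The count was 30 with limma and voom weights (23.7% of all genes), 28 against a level of 2 CPM (22.7%) and 29 without animal 2 (24.3%). Without animal 1, 3 or 4 it was 31, against 24.5%, 24.2% and 24.3% of all genes. After leaving out genes under 10 counts it was 31, and 81% of the 15056 genes kept were called. That 81% is over kept genes only and is not to be set against the 46.3%, which is over all 67 genes. Slc24a4 and Slc26a6 were lost with voom weights and without animal 2, and voom weights added Slc4a7. Most of the table is empty, and among genes with any count the shares were 58.5% of 53 transporter genes and 52.1% of 22936 genes. The median level of the genes called was 19.0 CPM in the transporter families and 22.8 CPM over all genes called. Another 22 transporter genes had a value but were not called, and 14 had no count. All 31 had a value in each of the 4 animals, 22 had a mean of 10 CPM or more, and Fxyd1, Atp1b1 and Fxyd6 had means over 100 CPM.

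**Figure D1:**
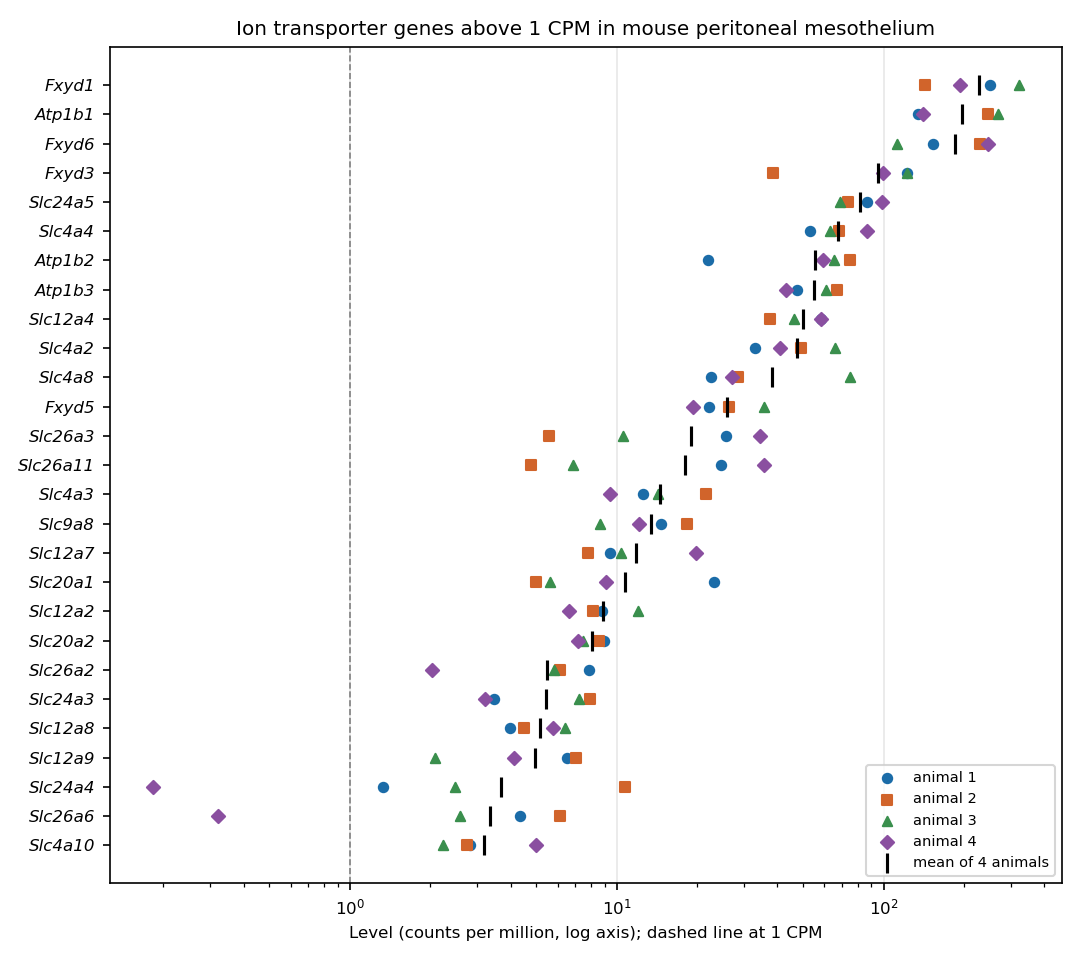
Level in CPM (log axis) of 27 of the 31 genes above 1 CPM, 1 point per animal with the mean of 4 animals as a bar, ordered by mean. Fxyd1 at the top had 143 to 321 CPM, and Slc24a4 and Slc26a6 near the bottom fell under 1 CPM in animal 4.

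The FXYD genes held the highest level per length. FXYD proteins are single-span membrane proteins that modulate the pump. The 4 above 1 CPM are Fxyd1, Fxyd3 and Fxyd5, which are neighbours on mouse chromosome 7, and Fxyd6 on chromosome 9. Their promoters are shown because neighbouring genes of one family stood at very different levels per length, with Fxyd6 as the member from another chromosome. Each runs from 250 bases before to 50 bases after the annotated start (RefSeq, GRCm38.p6), 5′ to 3′ on the gene's own strand. Capitals mark a TATA box, searched as TATAAA on both strands (TTTATA on the other strand). The GC box (GGGCGG, or CCGCCC on the other strand) was searched as well.
Fxyd5: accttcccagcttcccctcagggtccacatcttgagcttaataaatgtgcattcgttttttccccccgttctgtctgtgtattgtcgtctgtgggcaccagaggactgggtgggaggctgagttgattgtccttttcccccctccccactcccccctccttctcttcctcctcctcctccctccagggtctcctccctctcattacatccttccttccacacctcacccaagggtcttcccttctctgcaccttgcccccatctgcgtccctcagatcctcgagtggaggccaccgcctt
Fxyd1: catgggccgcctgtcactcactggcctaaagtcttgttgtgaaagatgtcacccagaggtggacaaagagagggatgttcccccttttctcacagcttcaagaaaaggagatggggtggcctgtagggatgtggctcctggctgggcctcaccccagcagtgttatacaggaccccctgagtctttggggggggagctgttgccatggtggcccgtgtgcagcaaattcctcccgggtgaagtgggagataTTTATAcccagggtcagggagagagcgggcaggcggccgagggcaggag
Fxyd3: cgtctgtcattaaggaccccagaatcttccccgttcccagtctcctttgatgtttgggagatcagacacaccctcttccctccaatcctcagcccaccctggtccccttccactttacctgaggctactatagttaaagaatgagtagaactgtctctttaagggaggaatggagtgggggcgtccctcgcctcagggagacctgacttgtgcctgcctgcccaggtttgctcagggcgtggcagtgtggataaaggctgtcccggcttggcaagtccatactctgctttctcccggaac
Fxyd6: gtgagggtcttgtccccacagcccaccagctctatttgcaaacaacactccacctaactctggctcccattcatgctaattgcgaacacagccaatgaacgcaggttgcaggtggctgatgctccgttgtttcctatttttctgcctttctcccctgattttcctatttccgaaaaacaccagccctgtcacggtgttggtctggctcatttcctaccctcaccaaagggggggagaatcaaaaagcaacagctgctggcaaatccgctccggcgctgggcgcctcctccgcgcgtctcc
The Fxyd1 window, chr7:31054804-31055103 on the minus strand, held 1 TATA box match, on the strand opposite to the gene. That match lies within the 50 bases after the RefSeq start, not before it. The whole window lies inside the GENCODE M21 span of Fxyd1, 31051678 to 31057199, so the RefSeq start used here differs from the GENCODE start. The windows of Fxyd5 (chr7:31042282-31042581, minus strand), Fxyd3 (chr7:31076648-31076947, minus strand) and Fxyd6 (chr9:45369935-45370234, plus strand) held none, and none of the 4 held a GC box. Over 32851 promoter windows of this length, 13.6% held a TATA box match and 35.7% a GC box match. The number of CG dinucleotides was 6, 6, 7 and 12 in Fxyd1, Fxyd5, Fxyd3 and Fxyd6, and the median over all windows was 7. These matches are descriptions of letters only.

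Fxyd1 encodes phospholemman, the FXYD protein best known from heart and skeletal muscle, and lies on chromosome 7 at 31051678 to 31057199 (GRCm38, GENCODE M21). It had 250.4, 143, 321 and 192.5 CPM in animals 1 to 4. Animals 1 and 3 were the high ones, and the lowest animal still had more than 100 CPM. The skeletal and cardiac muscle markers summed to 2.24 to 4.64 CPM, with Ckm, Myh4, Myh2 and Myh6 at 0 counts. The smooth muscle and pericyte markers summed to 224, 114, 175 and 108 CPM, with 5 of 8 above 1 CPM.

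Fxyd6, phosphohippolin, a pump regulator described in brain and inner ear, had 153, 229, 113 and 247 CPM. Animals 2 and 4, the lower ones for Fxyd1, were the high ones here. Fxyd3 (Mat-8), which is known from mammary and gut epithelium, had 122, 38.6, 122 and 99.1 CPM, low in animal 2. Exons of Fxyd3 overlap those of Lgi4 on the opposite strand by up to 1844 bases, and 41.0% of the 31-base words in Fxyd3 transcripts also occur in other genes. The sources used here do not say whether the libraries kept strand, so reads of the pair cannot be told apart there. Lgi4 itself was low, at 4.48 ± 3.45 CPM.

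Fxyd5 (dysadherin), which is known for effects on cell adhesion, had 22.2, 26.4, 35.7 and 19.3 CPM. Per kilobase, Fxyd1 stood at 339 ± 114, Fxyd6 at 78.5 ± 26.8, Fxyd3 at 33.0 ± 13.7 and Fxyd5 at 8.64 ± 2.40 CPM. Fxyd1 made up 72.3% ± 8.56 of the FXYD level per kilobase. Within each animal Fxyd5 was lower than Fxyd1, by a mean of -5.25 on the log2 scale per length (SD 0.46, lower in 4 of 4 animals, sign-flip exact p = 0.13, the smallest that 4 animals allow, rounded). These values rest on the transcript length: with the median of the annotated lengths the difference was -3.62, the share of Fxyd1 was 55.8% and Fxyd3, at 23.8%, came before Fxyd6, at 15.5%, and with no division by length they were -3.08 and 41.7%. Fxyd2, the gamma subunit of the kidney pump, Fxyd4 (CHIF), known from kidney and colon, and Fxyd7, known from brain, were not above 1 CPM. They had 9.59, 9.16 and 1.90 estimated counts over the 4 libraries.

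**Figure D2:**
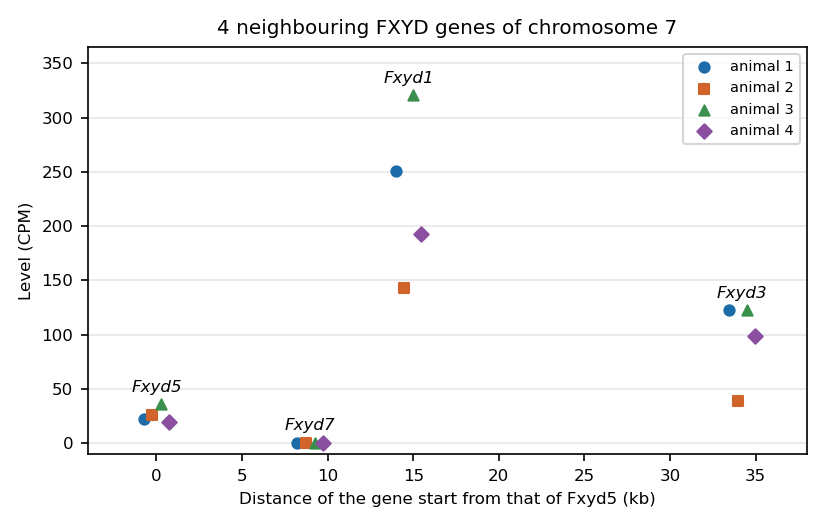
Level in CPM of the 4 FXYD genes of chromosome 7 in each animal (points spread sideways for sight), against the distance of each GENCODE gene start from that of Fxyd5 in kilobases. Fxyd7, 8.99 kb from Fxyd5, was at most 0.224 CPM, between Fxyd5 at 19.3 to 35.7 CPM and Fxyd1 at 143 to 321 CPM.

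Of the 4 beta subunit genes of the pump 3 were above 1 CPM, against 24.7% of all genes and 52.1% of genes with a count. The beta subunit folds the alpha subunit and carries it to the cell surface. Atp1a4, the alpha subunit of sperm, had no count.

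Atp1b1, the beta subunit common in epithelia, on chromosome 1 at 164437109 to 164458355, had 134, 247, 268 and 140.2 CPM. Animals 2 and 3 were high and animals 1 and 4 low, as were the fibroblast and erythroid marker sums, whose part in this level was not tested. Among the fibroblast markers, Lum had 87.4, 131, 37.3 and 48.5 CPM and Thy1 31.2, 10.5, 30.4 and 33.8 CPM. These and Pdgfra did not follow that order, and the other fibroblast markers did. The mesothelial marker sum was 14354, 15540, 14425 and 13671 CPM in animals 1 to 4. Wt1, Krt19, Krt8, Lrrn4, Bnc1, Muc16 and Cldn15 were each higher in animals 2 and 3 than in animals 1 and 4. Msln, Upk3b, Upk1b, Krt7 and Krt18 were not. The annotated exons of Atp1b1 overlap Nme7 on the opposite strand, with 16.9% of its 31-base words shared with other genes. Nme7 had 27.2, 16.4, 28.6 and 25.5 CPM. Atp1b3, a widely expressed beta subunit, had 47.4, 66.9, 60.9 and 43.1 CPM. Atp1b2, described first as an adhesion molecule of glia, had 22.0, 75.0, 65.2 and 59.4 CPM, so animal 1 had less than the others. Atp1b4, a muscle gene, had no count.

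Per kilobase, Atp1b1 stood at 76.4 ± 27.1, Atp1b3 at 27.4 ± 5.61 and Atp1b2 at 14.8 ± 6.18 CPM. Atp1b1 exceeded Atp1b3 by 1.42 on the log2 scale per length (SD 0.27, higher in 4 of 4 animals, sign-flip exact p = 0.13) and made up 63.8% ± 3.77 of the beta level. Levels of RNA do not give the ratio of the subunits as proteins.

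Among the sodium-proton exchangers, Slc9a8, whose product is known from the Golgi, had 14.6, 18.3, 8.67 and 12.1 CPM. Animal 2 was highest and animal 3 lowest. Per kilobase Slc9a8 held 21.1% ± 8.55 of the family, and 12.8% with the median transcript length.

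Other members of the family had few counts. Slc9a3 (NHE3), the sodium absorber of gut and kidney, had 2.75 counts in 1 animal, Slc9a2 had 7.45 counts in 2 animals, and Slc9a4, the gastric exchanger, had none. Slc9a5, Slc9a7 and Slc9a9 had 6.46, 6.59 and 5.73 counts. A count of 0 in all 4 libraries allows up to 0.171 CPM, by 3 counts over the group and for counting error only. Pdzk1, a scaffold partner of NHE3, had no count, whereas the scaffold genes Slc9a3r1 and Ezr stood at 519 ± 218 and 742 ± 132 CPM, and Chp1, a calcium-binding partner of sodium-proton exchangers, at 113 ± 8.19 CPM. In that list of scaffolds and partners 7 of 10 genes were above 1 CPM, against 24.7% of all genes and 52.1% of genes with a count.

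None of the 3 Slc8 genes was above 1 CPM in the edgeR test, and none at an unadjusted p under 0.05 or by limma with voom weights. Slc8a1 (NCX1), the cardiac exchanger, had 1.26, 1.11, 1.28 and 0.712 CPM, Slc8a3 had 3.64 counts and Slc8a2 none. Slc8b1, the mitochondrial sodium-calcium exchanger, which the symbol rule leaves out, had 8.34 ± 2.37 CPM.

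In the potassium-dependent family, Slc24a5 had 86.6, 73.7, 68.7 and 98.5 CPM. This gene, on chromosome 2 at 125068124 to 125088677, is known for its exchanger in the melanosomes of pigment cells. Up to 714 bases of its exons lie opposite an exon of Myef2, and 40.2% of its 31-base words occur in other genes, mainly Myef2. Myef2 had 66.5, 47.0, 53.2 and 60.03 CPM. Melanocyte markers, a list drawn up after the level of Slc24a5 had been seen, summed to 0 to 1.53 CPM, with Tyrp1, Dct, Mlana, Slc45a2 and Oca2 at 0 counts. How much of the value assigned to Slc24a5 came from Myef2 was not tested.

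Slc24a3, a widely expressed member, had 5.45 ± 2.46 CPM. Slc24a4, known from olfactory neurons and enamel-forming cells, had 1.33, 10.7, 2.48 and 0.183 CPM. Its call rests on animal 2: without it the mean fell to 1.33 CPM, against 3.68 CPM with all 4 animals, and the gene was not above 1 CPM (adjusted p = 0.987 by edgeR). Slc24a2, the cone photoreceptor member, had 3.88 counts and Slc24a1, the rod member, none.

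The cation-chloride cotransporters were led per length by Slc12a4. This gene encodes KCC1, a potassium-chloride cotransporter, and lies on chromosome 8 at 105943590 to 105966097. It had 58.2, 37.7, 46.2 and 58.2 CPM. Slc12a7 (KCC4) had 9.43, 7.82, 10.4 and 19.8 CPM, highest in animal 4. Slc12a2 (NKCC1), which brings in sodium, potassium and chloride, had 8.89 ± 2.29 CPM.

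Slc12a2 lay below Slc12a4 by a mean of -3.21 on the log2 scale per length (SD 0.52, lower in 4 of 4 animals, sign-flip exact p = 0.13). Slc12a4 made up 54.6% ± 5.80 of the family per kilobase and Slc12a2 5.83% ± 1.87. With the median transcript length, Slc12a4 made up 75.3% and Slc12a2 1.81%, and Slc12a2 was lower by a mean of -5.38. The less studied members Slc12a8 and Slc12a9 had 5.16 ± 1.12 and 4.94 ± 2.29 CPM. The kidney cotransporters were at the limit of counting, with no count for Slc12a1 (NKCC2) and 2.31 counts for Slc12a3 (NCC), and the neuronal Slc12a5 (KCC2) had 2.02 counts.

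The cotransporters are regulated by a kinase cascade. WNK kinases respond to chloride and cell volume and activate Stk39 (SPAK) and Oxsr1, which stimulate NKCC1 and restrain the KCCs. In a list of 13 genes of this cascade, which holds adaptors and ubiquitin ligase parts besides kinases, 10 were above 1 CPM, against 24.7% of all genes and 52.1% of genes with a count. Wnk2, Wnk3 and Klhl3 were not called. Wnk1 stood at 60.1 ± 9.87 CPM and the adaptor gene Cab39l at 57.2 ± 7.58 CPM. The serum- and glucocorticoid-regulated kinase Sgk1, which raises epithelial sodium transport, was at 906 ± 712 CPM, with 1693, 279, 328 and 1323 CPM in animals 1 to 4.

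Of the 10 bicarbonate transporter genes, 5 were above 1 CPM, against 24.7% of all genes and 52.1% of genes with a count. Slc4a4 (NBCe1), the electrogenic sodium-bicarbonate cotransporter, on chromosome 5 at 88886818 to 89239653, had 53.0, 68.2, 63.1 and 86.4 CPM. Slc4a2 (AE2), a chloride-bicarbonate exchanger of many epithelia, had 33.0, 49.1, 65.9 and 40.8 CPM. Both exceeded 30 CPM in every animal. The related exchanger gene Slc4a3 (AE3) had 12.6, 21.6, 14.3 and 9.46 CPM. Exons of Slc4a2 overlap Fastk on the opposite strand, 14.2% of its 31-base words are shared, and Fastk had 55.9 ± 1.37 CPM.

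Slc4a8 (NDCBE), a sodium-driven chloride-bicarbonate exchanger known mostly from neurons, had 22.6, 28.6, 74.6 and 27.0 CPM. Animal 3 stood apart from the other 3, which lay within 22.6 to 28.6 CPM. Its transcripts shared no 31-base word with another gene. Slc4a10, a related neuronal carrier, had 3.19 ± 1.22 CPM. Of the neuron and Schwann cell markers 1 of 8 was above 1 CPM, Stmn2 at 89.4 ± 29.3 CPM, and Snap25, Syt1 and Sox10 had no count. The summed level of that list was 122, 55.9, 101 and 81.5 CPM in animals 1 to 4, and its part in the levels of Slc4a8 and Slc4a10 was not tested.

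Per kilobase, Slc4a2 held 41.8% ± 3.93 of the family, Slc4a4 33.3% ± 7.58, Slc4a8 11.7% ± 4.85 and Slc4a3 7.88% ± 2.86. The shares of Slc4a2 and Slc4a4 overlapped between animals. Slc4a2 exceeded Slc4a3 by 2.44 on the log2 scale per length (SD 0.497, higher in 4 of 4 animals, sign-flip exact p = 0.13). The order below Slc4a2 rests on the length: with the median transcript length the shares were 38.4% for Slc4a2, 33.4% for Slc4a8 and 14.9% for Slc4a4. With no division by length Slc4a4 had the larger share, 39.8%, beside 26.8% for Slc4a2. Slc4a7 (NBCn1) had 1.46, 1.54, 1.90 and 1.89 CPM and was not above 1 CPM by edgeR (adjusted p = 0.345), whereas limma with voom weights called it. Slc4a9 (AE4) had 0.215, 2.13, 4.30 and 0.242 CPM and was not called (adjusted p = 0.496). Slc4a11, a carrier of the corneal endothelium, had 10.4 counts, and Slc4a5 had 0.635. Slc4a1, the band 3 exchanger of red cells, had no count.

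**Figure D3:**
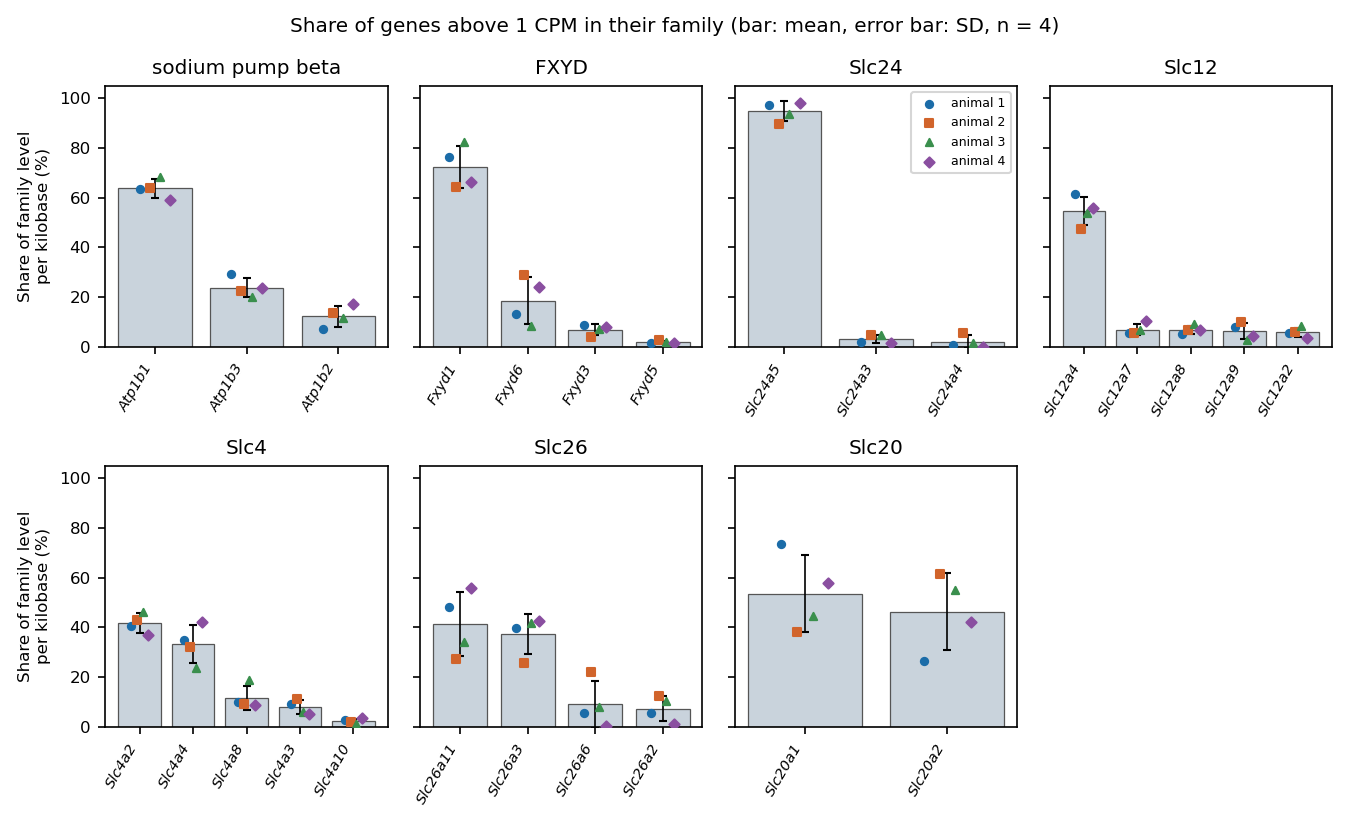
Share of genes above 1 CPM in their family's level per kilobase of the longest transcript, in 7 families (bars: mean, error bars: SD of 4 animals, points: animals). Atp1b1 held 63.8% of the beta subunits, Fxyd1 72.3% of the FXYD genes and Slc24a5 94.8% of its family, while the points of Slc20a1 and Slc20a2 crossed over between animals.

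Of the 11 Slc26 anion exchanger genes 4 were above 1 CPM, against 24.7% of all genes and 52.1% of genes with a count. The leading pair differed widely between animals. Slc26a3, known as DRA, the chloride-bicarbonate exchanger of the colon, on chromosome 12 at 31390871 to 31473917, had 25.6, 5.58, 10.5 and 34.4 CPM. Slc26a11, reported as a sulfate and chloride carrier, had 24.6, 4.77, 6.87 and 35.8 CPM. In both genes animals 1 and 4 were high and animals 2 and 3 low, with no overlap. The same animals were high for Sgk1. The fibroblast and erythroid marker sums were low in these animals and high in animals 2 and 3, and libraries 1 and 4 were the closest pair over all genes. Among the fibroblast markers, Lum, Thy1 and Pdgfra did not follow the order of their sum. The mesothelial markers Wt1, Krt19, Krt8, Lrrn4, Bnc1, Muc16 and Cldn15 were also low in animals 1 and 4 and high in animals 2 and 3. Msln, Upk3b, Upk1b, Krt7 and Krt18 did not show that split. Intestinal and pancreatic markers summed to 0.877, 10.9, 0.675 and 1.65 CPM, with none of 8 above 1 CPM and Alpi, Vil1, Prss2 and Ctrb1 at 0 counts. The part of these cell types in the levels of Slc26a3 and Slc26a11 was not tested.

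The spread of log2 levels placed Slc26a11 at the 99.2 percentile and Slc26a3 at the 97.4 percentile of the 500 genes nearest in level. Slc26a2, the sulfate transporter needed for cartilage matrix, had 7.86, 6.12, 5.83 and 2.04 CPM. Slc26a6 (PAT1), an exchanger of chloride with bicarbonate or oxalate, had 4.33, 6.11, 2.59 and 0.320 CPM. Without animal 2 Slc26a6 was not above 1 CPM (mean 2.41 CPM, adjusted p = 0.112 by edgeR). Slc26a2 and Slc26a6 could not be ordered per length (log2 difference 0.02, SD 0.67, Slc26a2 higher in 2 of 4, sign-flip exact p = 1). Slc26a8, the testis member, had 11.045 counts, Slc26a10 6.77 and Slc26a1 5.04. Slc26a4 (pendrin), Slc26a5 (prestin), Slc26a7 and Slc26a9 had none. Cftr, the chloride channel that works with several of these exchangers, had 14.8, 0.207, 2.79 and 11.1 CPM, high in the same animals 1 and 4 as Slc26a3, and is named here after its values were seen.

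Among the sodium-phosphate carriers, both Slc20 genes and no Slc34 gene were above 1 CPM. The Slc20 products Pit1 and Pit2 import phosphate with sodium in most cells. Slc20a1 had 23.2, 4.98, 5.604 and 9.12 CPM, and its mean without animal 1 was 6.57 CPM, against 10.7 CPM with it. Slc20a2 had 8.997, 8.61, 7.45 and 7.16 CPM, the smallest coefficient of variation among the 31 genes at 11.03%. Which of the pair was higher differed between animals (mean log2 difference per length 0.24, SD 0.91, Slc20a1 higher in 2 of 4, exact sign-flip permutation p = 0.75), and the sign turned to -1.72 with the median transcript length. Slc34a1, Slc34a2 and Slc34a3, the phosphate carriers of kidney, gut and lung, had no count in any animal. Of the genes of phosphate export and its hormonal control, 4 of 8 in the table were above 1 CPM. That share lay near the 52.1% of genes with a count and above the 24.7% of all genes. Among the 4 were the FGF receptor Fgfr1 at 53.0 ± 4.15, the phosphate exporter Xpr1 at 11.8 ± 4.20 and the hormone gene Stc1 at 5.17 ± 3.42 CPM. Fgf23, the phosphate-lowering hormone, had no count.

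Of 9 genes of apical sodium entry 3 were above 1 CPM, a share near the 24.7% of all genes and below the 52.1% of genes with a count. They were the channel subunit Scnn1a at 37.9 ± 4.37 CPM, its protease Prss8 at 6.10 ± 3.52 CPM and the mineralocorticoid receptor Nr3c2 at 3.34 ± 0.970 CPM. The subunits Scnn1b and Scnn1g, the cortisol-inactivating enzyme Hsd11b2 and the glucose carrier Slc5a2 had no count. Of 8 further genes outside the symbol rule 2 were above 1 CPM, again near the 24.7% of all genes and below the 52.1%. They were the exchanger gene Slc8b1 and Slc4a1ap, which encodes an adaptor of Slc4a1 and no carrier, at 11.6 ± 6.70 CPM. The non-gastric proton pump gene Atp12a had 2.24 ± 3.23 CPM and was not called.

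The coefficient of variation of the 31 genes ran from 11.03% in Slc20a2 to 130.3% in Slc24a4, with a median of 35.4%, against 27.4% over all genes called. Against the 500 genes nearest in level, the spread of 9 of the 31 lay above the 90th percentile, among them Atp1b1, Fxyd6, Fxyd3, Atp1b2, Slc4a8, Slc26a3, Slc26a11 and Slc24a4. Slc20a2 and Slc12a8 lay below the 10th. The animals did not share a single order, since Fxyd1 and Slc4a8 were highest in animal 3, Slc26a3 and Slc4a4 in animal 4 and Slc20a1 in animal 1. Summed over all 67 genes, the level was 1276 to 1559 CPM per animal.

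**Figure D4:**
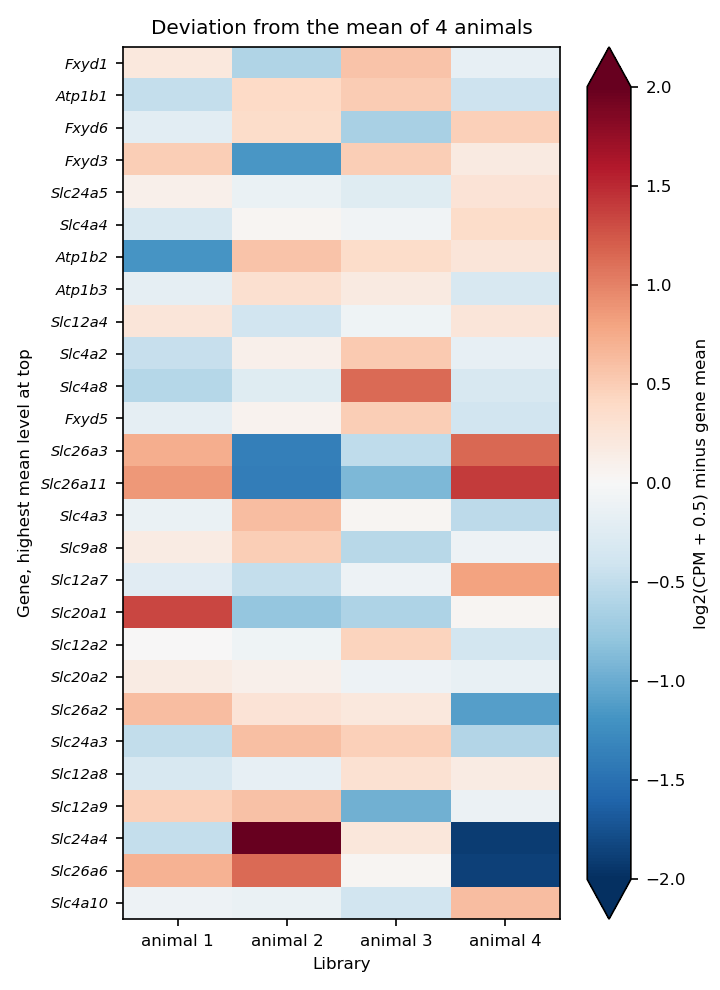
Deviation of each animal from the gene's mean over 4 animals, in log2(CPM + 0.5), for 27 of the 31 genes above 1 CPM ordered by mean level (colour scale from -2 to 2, values beyond it shown in the end colours). Slc26a3 and Slc26a11 were both high in animals 1 and 4 and low in animals 2 and 3, and Slc20a2 hardly differed between animals.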

How the data were processed

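Per the submitters' processing notes, kallisto 0.43.1, edgeR 3.24.3, limma 3.38.3 and build GRCm38.p5 were used, with no role given for each. The authors deposited 1 table of estimated counts, a unit read from the values: at least 99.7% of nonzero entries per library were not whole (more than 0.000001 from a whole number). How transcripts were summed to genes is not stated in those notes. Values that are not whole do not show whether they had been scaled by transcript length. Levels per kilobase and the floor of 3 counts take the values as not scaled, which could not be checked.

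CPM are estimated counts over the column sum. For tests, estimated counts were rounded. In edgeR 4.0.16 (R 4.3.3) each gene's level was set against 1 CPM in an intercept-only quasi-likelihood fit, one-sided, with Benjamini-Hochberg adjustment over all genes at 0.05. The F statistic was computed from deviances and checked on simulated data. Of 200 genes simulated at 1, 2 and 4 CPM, 0%, 22% and 93% were called (fit of 48425 genes). Alternatives were TMM, size factors of DESeq2 1.42.0, limma 3.58.1 with voom, a filter at 10 counts, 2 CPM, and leaving out each animal. Paralog pairs (12 listed, 7 with both above 1 CPM) were compared within animals on the log2 scale of CPM + 0.5 divided by length, by exact two-sided sign-flip permutation. Lengths, coordinates, exon overlaps and shared 31-base words (either strand) came from GENCODE M21 on GRCm38, matched by symbol for 67 of 67 genes.

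By rule, genes above 1 CPM were named with all 4 values where their mean was 10 CPM or more and otherwise at least with mean and SD, genes not called with their counts, and of each pathway list the 3 highest; Cftr and genes sharing sequence with a member were chosen after their values were seen. The members, lists and pairs were chosen with earlier results of these data known. No pair of libraries agreed within sampling noise (chi-square per gene 10.8 to 26.4), so none was treated as a library deposited again. Results for some of the genes counted are not reported here. The study describes 4 separate animals.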

Additional observations from a re-analysis of the deposited data

Results flagged for a closer look

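In each set of 4 animals, the gap between the most extreme animal and its nearest neighbour was divided by the whole range, and values above Dixon's critical value for 4 samples were singled out. Chance gives about 1 in 20 such sets, and 58 were listed. The Slc34 sum among them was 0 in all 4 animals, so it had no range and could not be examined. Family sums hold genes that were also examined singly, so the sets overlap. In all, 4 sets were singled out. Slc4a8 had 74.6 CPM in animal 3, against 22.6 to 28.6 CPM in the other 3 animals. The summed level of the Slc20 genes was 32.2 CPM in animal 1, against 13.1 to 16.3 CPM in the others, with Slc20a1 supplying 23.2 CPM of it. The leukocyte markers summed to 16.4 CPM in animal 1, against 0.883 to 2.48 CPM in the others. The intestinal and pancreatic markers summed to 10.9 CPM in animal 2, against 0.675 to 1.65 CPM in the others. Whether the leukocyte markers bear on the level of Slc20a1 in animal 1 was not tested.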

How the results depend on the processing

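The count of transporter genes above 1 CPM stayed within 28 to 31 under all alternatives run, and the other scalings (TMM and DESeq2 size factors) moved single levels by 0.981 to 1.02 times. Leaving out 1 animal moved 2 levels by more than 1.5 times, Slc20a1 without animal 1 (0.612 times) and Slc24a4 without animal 2 (0.361 times). Transcript length mattered most. With the median transcript length the log2 difference of Slc20a1 over Slc20a2 reversed to -1.72, and the others moved to -3.62 for Fxyd5 over Fxyd1, -5.38 for Slc12a2 over Slc12a4 and 1.73 for Slc4a2 over Slc4a3. The shares became 55.8% for Fxyd1, 75.3% for Slc12a4 and 24.7% for Slc20a1. With no division by length the differences were 1.80 for Atp1b1 over Atp1b3, -3.08 for Fxyd5 over Fxyd1, -2.44 for Slc12a2 over Slc12a4, 1.69 for Slc4a2 over Slc4a3 and 0.86 for Slc26a2 over Slc26a6, and the shares 41.7% for Fxyd1, 45.8% for Slc12a4, 89.5% for Slc24a5 and 26.8% for Slc4a2. Leaving out 1 animal in turn gave -0.23 to 0.31 for Slc26a2 over Slc26a6, reversed without animal 4 and, at -0.03, without animal 3, and -0.16 to 0.53 for Slc20a1 over Slc20a2, reversed without animal 1. A pseudocount of 0.1 CPM moved no difference past its SD.

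No paired analysis was possible because the series has 1 group, so no groups share replicate numbers; the gene pairs above are compared within an animal. With 3 counts as the floor, a gene without a count is limited to 0.657 to 0.734 CPM in a single library, for counting error only, and the smallest exact sign-flip p with 4 animals is 0.13 after rounding. Genes near 1 CPM rest on few counts, and genes that overlap others on the opposite strand carry the limit given beside them.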
